A study of Mus musculus with 6 samples.

Results

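Dense PU.1 clusters are stretches of the macrophage genome in which regions bound by PU.1 follow one another closely. Autosomal PU.1 regions were chained whenever the gap to the next region was at most 5000 bp, and regions in chains of 5 or more were taken as dense. This gave 6335 dense regions in 1005 chains, out of 45485 autosomal PU.1 regions and 46356 in all. They made up 13.9% of the autosomal regions. At the other extreme 18396 regions, 40.4%, were lone, with no other PU.1 region within 5000 bp. Both classes were chosen by the measured positions of the PU.1 regions alone, so chain size, span and spacing are given below as a description, and only the other proteins and the histone mark were tested.

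The study used ChIP-seq, in which DNA bound to a protein is pulled down with an antibody and sequenced, to compare PPARγ in mouse macrophages and fat cells. The macrophage libraries were PU.1, C/EBPβ, PPARγ and H3K9Ace (histone H3 acetylated at lysine 9), all from peritoneal macrophages of male C57BL/6 mice. The macrophages were taken 3 days after an injection of 3% thioglycollate, which draws inflammatory cells into the peritoneum, and were used after 24 h of adherence, with at least 4 animals pooled per sequencing run. The adipocyte libraries were PPARγ and H3K9Ace in differentiated 3T3-L1 cells, a mouse preadipocyte line. No PU.1 or C/EBPβ list of adipocytes was analysed here. No agonist or genetic change is named for any of the 6 libraries. Each antibody in each cell type has 1 library, so there is no replicate check, and every test below compares called regions within these lists, not separate cell populations. The macrophage PPARγ library came from 2 sequencing runs and every other library, adipocyte PPARγ included, from 1. Titles and antibody fields name the targets used here, although the free description of every library names PPARγ. The files hold positions and no expression values, so cell identity could not be checked against marker genes.

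PU.1 is an ETS-family transcription factor required for the myeloid lineage, and in macrophages it occupies many enhancers and helps to open chromatin there. C/EBPβ is a leucine-zipper factor that works beside PU.1 in macrophages and drives early fat cell differentiation. PPARγ is a lipid-sensing nuclear receptor, the central regulator of fat cell identity, and is also present in macrophages. H3K9Ace marks active promoters and enhancers. Close groups of enhancers occupied by lineage factors are known from many cell types and often lie near genes that define the cell.

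The dense chains held a median of 6 regions, and 678 of the 1005 held 5 or 6. There were 65 chains of 10 or more, and the longest had 19. The median span was 10.3 kb, with a range of 2.22 to 41.9 kb, and the summed span was 11.2 Mb. Neighbours within a chain stood a median of 1.41 kb apart, and 691 of the 5330 gaps, 13.0%, were at most 200 bp. PU.1 regions filled a median of 17.1% of the span. Dense regions had a median width of 267 bp and lone regions one of 224 bp. Width was the only value beside position in the PU.1 list, and 61.0% of dense regions exceeded the median of the autosomal list, 239 bp, against 42.1% of lone regions. The limit between classes was a matter of degree. Chains of 5 had a median span of 8.27 kb and chains of 4 one of 6.30 kb, and 60.2% of the regions in chains of 5 were acetylated in macrophages, against 55.9% in chains of 4. The widest gaps inside the chains were 4998 and 4997 bp, and the narrowest gaps beyond the limit were 5001 and 5003 bp.

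C/EBPβ was the factor most often found with the dense regions. It overlapped 2515 of the 6335 dense regions, 39.7%, and 3829 of the 18396 lone regions, 20.8%. Over all autosomal PU.1 regions the share was 28.8%. Most chains had some C/EBPβ: 920 of 1005 had at least 1 PU.1 region with it, 91.5% (95% Wilson interval 89.7 to 93.1), 729 had 2 or more, and 10 had it at every region. A chain holds at least 5 regions, so a high share of chains with 1 or more follows in large part from chain size. No like count was made for other PU.1 regions. Regions of a chain are neighbours and share their surroundings, so each chain entered the test once, through its middle region (for an even number, the lower of the middle pair). C/EBPβ lay at 411 of the 1005 middle regions, 40.9% (37.9 to 44.0), against 20.8% of lone regions (20.2 to 21.4). The odds ratio was 2.63 (95% interval 2.30 to 3.01, adjusted p over the 5 lists = 5.68e-44 by a 2-sided Fisher's exact test). It was 4.40 when C/EBPβ centres within 1000 bp were counted in place of overlap. At dense regions such a window can also take in C/EBPβ at a neighbouring PU.1 region, which lone regions lack by definition. The higher value is therefore no stronger evidence than the overlap. The intervals cover counting error only.

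C/EBPβ regions were also found between the PU.1 regions of a chain. The spans of the dense chains held 2944 C/EBPβ regions, 12.3% of the autosomal C/EBPβ list, and 519 of them, 17.6%, touched no PU.1 region. Over the whole autosomal C/EBPβ list, 12856 of 24024 regions touched a PU.1 region and the rest did not. The spans were chosen for their PU.1 regions, so these shares were not tested against each other. Within chains C/EBPβ was only weakly shared between neighbours. Where a region carried C/EBPβ, 45.0% of the next regions did as well, against 36.7% where it did not, over 5330 neighbouring pairs. In 150 of the 963 pairs with C/EBPβ at both regions, a single C/EBPβ region reached across both.

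Macrophage PPARγ, taken from a list of regions with an authors' fold (a ratio to a control) of 5 or more, was rarer but followed the same order. It overlapped 351 dense regions, 5.54%, and 279 lone regions, 1.52% (1.35 to 1.70), with 2.83% over all autosomal PU.1 regions. The 326 PPARγ regions behind the 351 overlaps were 26.3% of the 1241 autosomal macrophage PPARγ regions that met any PU.1 region. A PPARγ region was present at 238 of 1005 chains, 23.7%, and 90 chains had 2 or more PU.1 regions with it. These counts of chains again depend on the number of regions per chain. At the middle regions the share was 5.07% (51 of 1005, 95% Wilson interval 3.88 to 6.61), an odds ratio to lone regions of 3.47 (2.51 to 4.73, adjusted p = 2.82e-12 by a 2-sided Fisher's exact test). It was 2.22 within strata of macrophage H3K9Ace and 2.28 within strata of C/EBPβ, a choice made after seeing the data.

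PPARγ in dense chains went together with C/EBPβ. Of the 351 dense regions with PPARγ, 280 also carried C/EBPβ, 79.8%, as did 922 of the 1287 autosomal PU.1 regions with PPARγ, 71.6%. Of the 238 chains with PPARγ, 234 had C/EBPβ at 1 or more of their regions, 98.3%, against 686 of the 767 chains without PPARγ, 89.4%. A chain with more regions has more places for either overlap, and chain size was not held fixed in this contrast. At middle regions PPARγ lay at 10.2% of regions that had C/EBPβ (42 of 411) and at 1.52% of regions that lacked it (9 of 594), an odds ratio of 7.40 (3.49 to 17.5, p = 2.34e-09 by a 2-sided Fisher's exact test, adjusted over 15 added tests). Lone regions showed a like ratio, 7.44 (5.77 to 9.65), from 4.75% and 0.666%. With C/EBPβ present, PPARγ was more frequent at middle regions than at lone regions, 10.2% against 4.75% (odds ratio 2.28, 1.56 to 3.27, adjusted p = 5.18e-05 by a 2-sided Fisher's exact test). Without C/EBPβ the odds ratio was 2.30 (1.01 to 4.57), and the 2-sided Fisher's exact test gave an adjusted p of 0.0625, which did not pass the threshold of 0.05.

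PPARγ was more frequent at dense regions, but the authors' fold of those PPARγ regions was not detectably higher. PPARγ regions at dense PU.1 regions had a median fold of 6.28 (n = 326, range 5 to 20.97), and those at lone PU.1 regions one of 6.44 (n = 281, range 5 to 22.5). At middle regions with PPARγ, 58.8% of the folds lay above the median of the PPARγ list, against 54.8% at lone regions (odds ratio 1.18, 0.617 to 2.28, adjusted p = 0.694 by a 2-sided Fisher's exact test). The interval allows a difference in either direction. The list holds only regions of fold 5 or more, so weaker PPARγ sites are absent from both classes and were not compared.

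Adipocyte PPARγ, also taken from a list of fold 5 or more, was scarce at macrophage PU.1 regions of every kind. It lay at 58 dense regions, 0.916% (0.709 to 1.18), and at 81 lone regions, 0.440% (0.354 to 0.547), against 0.556% of all autosomal PU.1 regions. At 30 of these dense regions PPARγ was called in macrophages as well. Of the 1005 chains 205 carried PPARγ of macrophages alone, 18 that of adipocytes alone and 33 that of both. At middle regions the share was 1.29% (13 of 1005), an odds ratio of 2.96 to lone regions (1.51 to 5.38, adjusted p = 0.00109 by a 2-sided Fisher's exact test). This call rested on 13 regions. It held with the first region of each chain (odds ratio 3.19, adjusted p = 0.000371 by a 2-sided Fisher's exact test). With all regions of the chains the odds ratio was 2.09, given without a p because neighbouring regions are not independent. The call was lost with the last region of each chain (odds ratio 1.59, adjusted p = 0.224 by a 2-sided Fisher's exact test), with chains of 8 or more (1.32, adjusted p = 0.535) and with the narrowest quartile of PU.1 regions left out (1.99, adjusted p = 0.135). Among regions with PPARγ in 1 cell type, the macrophage share was 86.5% at middle regions (45 of 52) and 81.7% at lone regions (255 of 312), and a difference between the cell types in the dense excess was not detectable (odds ratio 1.44, 0.601 to 3.97, adjusted p = 0.640 by a 2-sided Fisher's exact test).

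**Figure D1:**
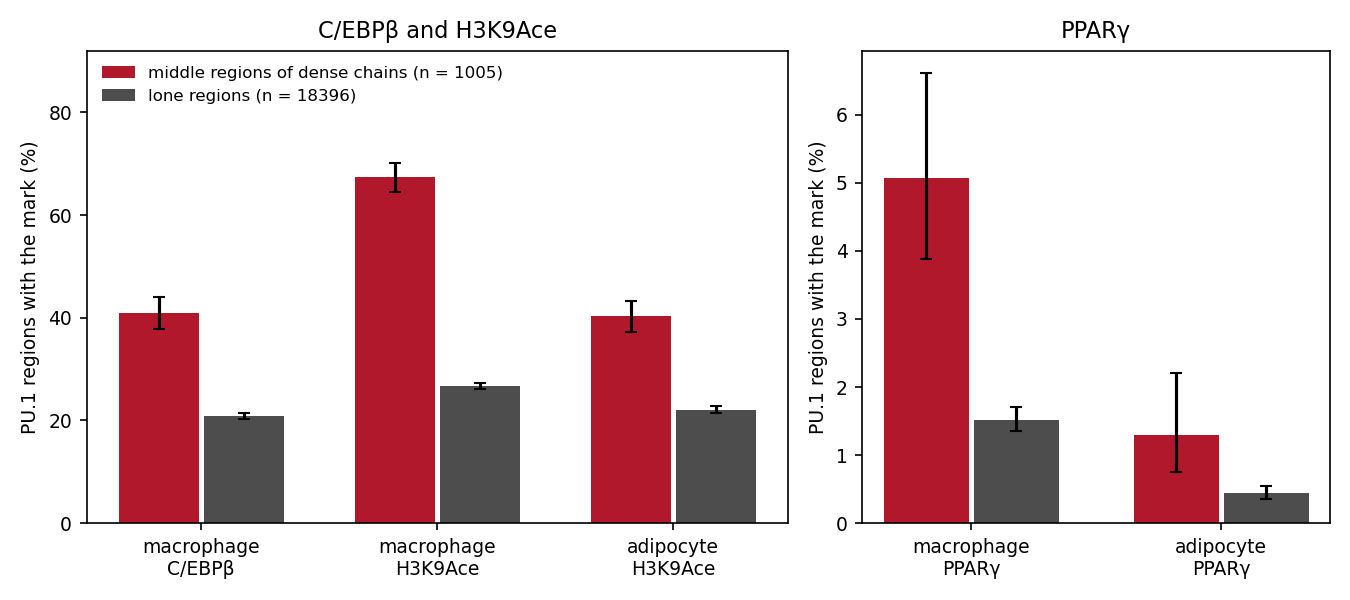
Percent of PU.1 regions that overlap each list (vertical axes), for the middle regions of the 1005 dense chains and for the 18396 lone regions. Bars start at 0 and the lines are 95% Wilson intervals; the share is higher at the dense chains for all 5 lists, as for macrophage H3K9Ace with 67.4% against 26.7%.

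Acetylation was more frequent at dense than at lone regions in both cell types. In macrophages 4033 of 6335 dense regions overlapped H3K9Ace, 63.7% (62.5 to 64.8), against 4907 of 18396 lone regions, 26.7% (26.0 to 27.3), and 41.1% over all autosomal PU.1 regions. At middle regions the share was 67.4% (677 of 1005), an odds ratio to lone regions of 5.67 (4.94 to 6.52, adjusted p = 4.07e-149 by a 2-sided Fisher's exact test). The ratio was 9.67 with chains built at a gap of at most 2500 bp. It was 3.35 with the first and 3.72 with the last region of each chain, and 3.05 with centres within 1000 bp. In adipocytes 36.5% of dense regions were acetylated (35.3 to 37.7), 22.1% of lone regions (21.5 to 22.7) and 28.1% of all. The odds ratio for middle regions, 40.3% of them acetylated, was 2.38 (2.08 to 2.71, adjusted p = 1.08e-35 by a 2-sided Fisher's exact test).

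The dense excess was larger for the acetylation of macrophages than for that of adipocytes. Middle regions were acetylated in macrophages alone in 332 cases and in adipocytes alone in 60, a ratio of 5.53 (exact McNemar test, 2-sided, p = 9.81e-47), where all autosomal PU.1 regions had 19.5% in macrophages alone and 6.55% in adipocytes alone. For lone regions the numbers were 2133 and 1295, a ratio of 1.65. The ratio of these ratios was 3.36 (2.52 to 4.54, p = 1.50e-20 by a 2-sided Fisher's exact test), and 7.68 with a gap of at most 2500 bp, where the ratio at dense middle regions was 14.4. The macrophage list covers 53.1 Mb and the adipocyte list 100.1 Mb, and the part of list length in these ratios was not tested. Acetylation in both cell types was found at 345 middle regions, 34.3%, and at 15.1% of lone regions, with 21.6% over all autosomal PU.1 regions. No acetylation in either was found at 268 middle regions, 26.7%, and at 66.3% of lone regions, with 52.3% over all.

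Over the whole span of a chain, macrophage H3K9Ace covered a median of 43.0% and adipocyte H3K9Ace a median of 18.0%. A macrophage H3K9Ace region lay within the span of 966 chains and an adipocyte one within the span of 633. By the number of acetylated PU.1 regions, 619 chains were more acetylated in macrophages, 153 in adipocytes and 233 equally. All PU.1 regions were acetylated in macrophages in 173 chains, in both cell types in 75, and in macrophages with none in adipocytes in 34. The median number of macrophage H3K9Ace regions in a span was 2. A single macrophage H3K9Ace region covered at least 50% of the span in 157 chains, 15.6%, and all of it in 27. For a single adipocyte H3K9Ace region these numbers were 162, 16.1%, and 49. The macrophage H3K9Ace regions at middle regions were wider than those at lone regions, with medians of 2800 and 1500 bp. Of them 84.5% exceeded the median of the macrophage H3K9Ace list, against 69.9% at lone regions (odds ratio 2.35, 1.89 to 2.95, adjusted p = 7.89e-16 by a 2-sided Fisher's exact test). For the adipocyte list these shares were 85.7% and 84.1% (odds ratio 1.13, 0.844 to 1.54, adjusted p = 0.540 by a 2-sided Fisher's exact test). The adipocyte H3K9Ace regions were nevertheless wider at middle than at lone regions, with medians of 4150 and 3000 bp. Both lay far above the median of the adipocyte list, 1000 bp, so a cut there says little about this difference, which was not tested otherwise.

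**Figure D2:**
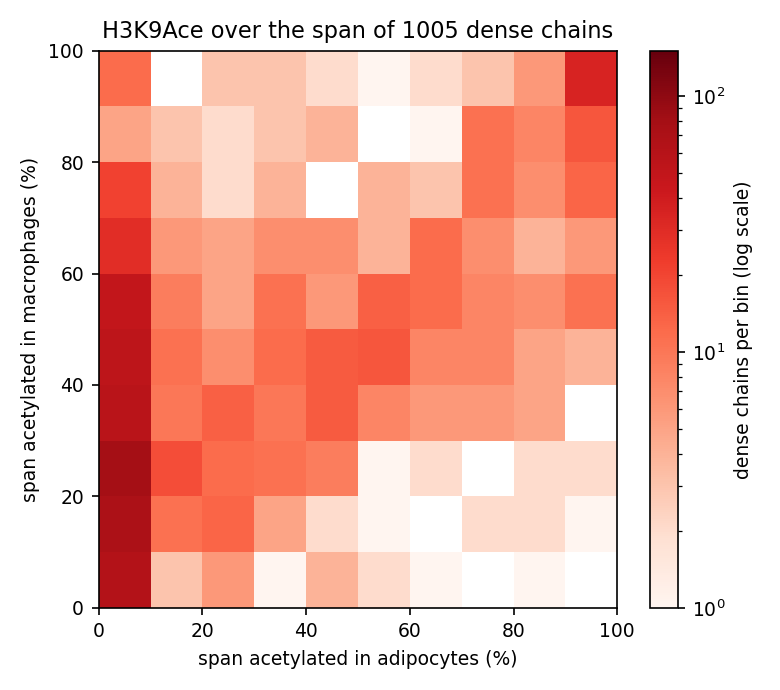
Percent of the span of each dense chain covered by H3K9Ace in adipocytes (horizontal axis) and in macrophages (vertical axis), in bins of 10 percentage points, with the number of chains per bin as colour on a log scale. The left column, little or no adipocyte acetylation, holds chains with every level of macrophage acetylation; the medians over the 1005 chains are 43.0% in macrophages and 18.0% in adipocytes.

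The higher shares of C/EBPβ and PPARγ were not restricted to acetylated regions. At regions acetylated in macrophages, C/EBPβ lay at 46.5% of middle and 33.3% of lone regions (odds ratio 1.74, 1.48 to 2.06, adjusted p = 1.46e-10 by a 2-sided Fisher's exact test). At regions without that mark it lay at 29.3% and 16.3% (odds ratio 2.13, 1.65 to 2.72, adjusted p = 2.12e-08 by a 2-sided Fisher's exact test). Macrophage PPARγ lay at 6.35% of acetylated middle regions and 3.06% of acetylated lone regions (odds ratio 2.15, adjusted p = 0.000141 by Fisher's exact test), and at 2.44% and 0.956% of those not acetylated (odds ratio 2.59, adjusted p = 0.0309). For adipocyte PPARγ neither stratum alone passed the threshold, with odds ratios of 1.91 and 2.12.

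The shares of the 3 macrophage lists were higher at wider PU.1 regions, and the dense excess was seen at each width. In the narrowest quartile of PU.1 regions (up to 197 bp) C/EBPβ lay at 16.3% of middle regions and 7.79% of lone regions, and in the widest quartile (from 318 bp) at 65.9% and 42.8%. Macrophage H3K9Ace had 51.0% and 14.9% in the narrowest quartile and 77.9% and 47.3% in the widest. For macrophage PPARγ the values were 0.990% and 0.380% in the narrowest quartile and 10.0% and 4.17% in the widest. Within quartiles of width the common odds ratios were 2.13 for C/EBPβ, 2.51 for macrophage PPARγ, 4.91 for macrophage H3K9Ace, 2.53 for adipocyte PPARγ and 2.15 for adipocyte H3K9Ace. What the width of a PU.1 region reflects was not tested.

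**Figure D3:**
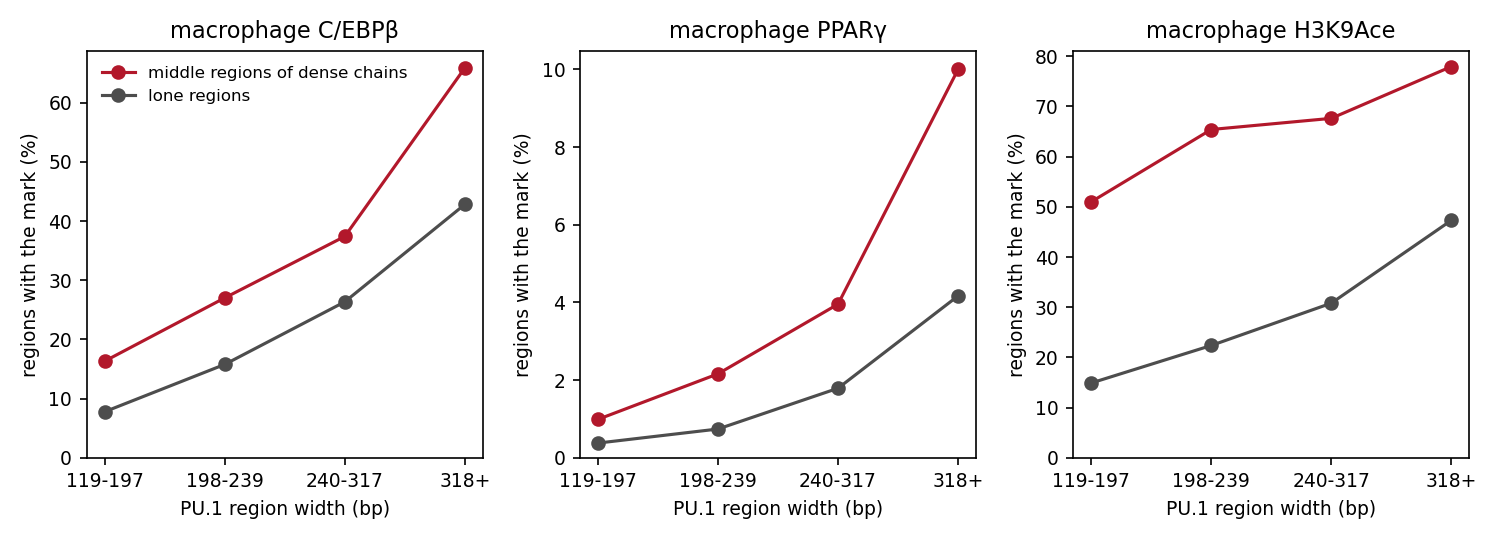
Percent of PU.1 regions that overlap C/EBPβ, PPARγ and H3K9Ace of macrophages (vertical axes) by quartile of PU.1 region width in bp (horizontal axes), for middle regions of dense chains and for lone regions. The dense chains lie above the lone regions in every quartile of each panel, and in both classes wider regions have the higher shares.

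The shares changed in steps with chain size and not all in the same way. From lone regions through chains of 2, 3, 4 and 5 to 7 to chains of 8 or more, macrophage H3K9Ace lay at 26.7%, 42.5%, 49.8%, 55.9%, 61.8% and 68.9% of regions. C/EBPβ lay at 20.8%, 29.5%, 34.1%, 38.6%, 39.2% and 41.1%, and the intervals of the last 3 classes overlapped. Macrophage PPARγ lay at 1.52%, 2.48%, 3.35%, 4.91%, 5.18% and 6.58%. The adipocyte lists did not continue upward: H3K9Ace was at 37.5% in chains of 5 to 7 and 33.6% in chains of 8 or more, and PPARγ at 1.02% and 0.609%. These shares count regions and not chains, so the intervals drawn with them are too narrow for the larger chains, and no test was made of the trend.

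**Figure D4:**
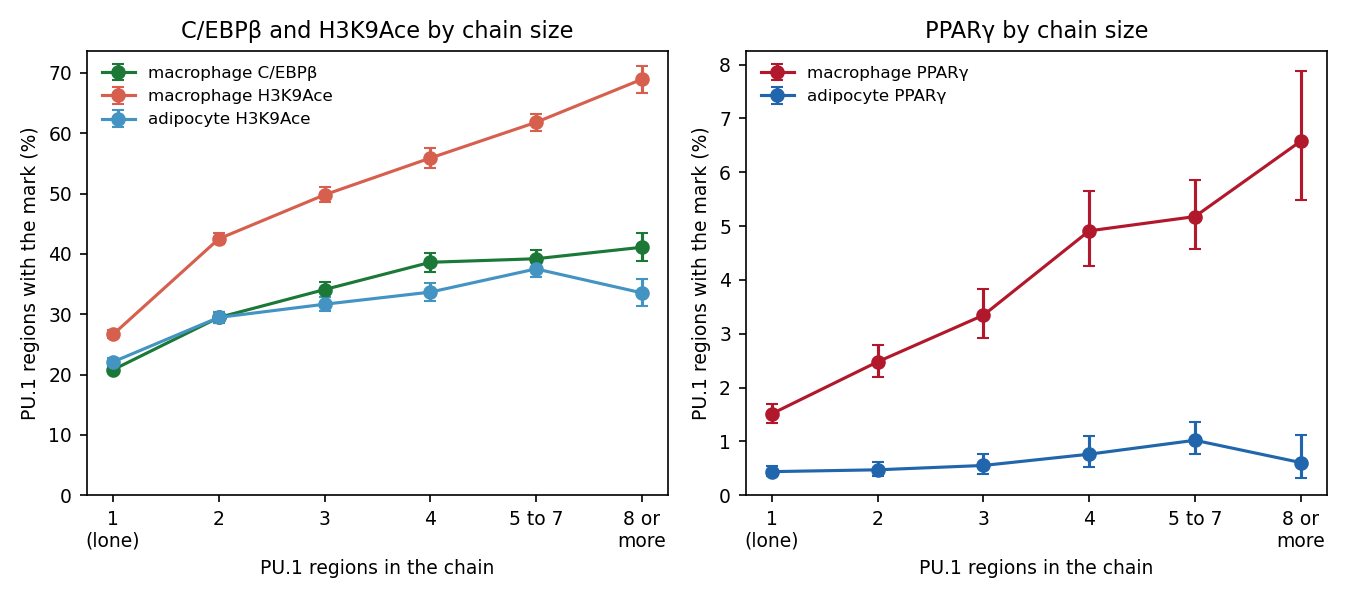
Percent of PU.1 regions that overlap each list (vertical axes) by the number of PU.1 regions in the chain (horizontal axes, lone regions at 1), with 95% Wilson intervals that treat regions as independent. The macrophage lists are highest in chains of 8 or more, where 68.9% of regions are acetylated and 6.58% carry PPARγ, while both adipocyte lists are highest in chains of 5 to 7.

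Acetylation was more frequent in the middle of the chains than at their ends. The middle region was acetylated in macrophages in 67.4% of chains, the first region in 54.9% and the last in 57.5% (exact McNemar tests over 10 comparisons, adjusted p = 7.86e-09 and 6.36e-06). Adipocyte H3K9Ace likewise lay at 40.3% of middle, 32.6% of first and 34.9% of last regions (exact McNemar tests, adjusted p = 4.94e-06 and 0.00149). C/EBPβ at 40.9%, 38.0% and 37.3%, and macrophage PPARγ at 5.07%, 5.17% and 4.28%, showed no detectable difference (exact McNemar tests, adjusted p of 0.213 and above). Acetylation was shared between neighbours: after an acetylated region 77.7% of the next regions were acetylated in macrophages, against 42.5% after a region that was not. In 1790 of 2684 pairs with both acetylated, the same H3K9Ace region held both. PPARγ also came in neighbouring pairs, with 23.4% of the next regions after one with macrophage PPARγ and 4.52% after one without. Of those 72 pairs, 29 shared a single PPARγ region.

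Tightly packed chains were more acetylated than loose ones. In the third of chains with the fewest regions per 10 kb, macrophage H3K9Ace lay at 57.0% of middle regions and adipocyte H3K9Ace at 34.9%. In the third with the most these shares were 76.4% and 45.4%. C/EBPβ lay at 42.4% and 41.2%, and macrophage PPARγ at 5.37% and 5.97%. These values are a description, since density comes from the positions that chose the chains.

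The 10 chains with the most PU.1 regions were heavily acetylated in macrophages. Together they held 154 PU.1 regions, of which 128 were acetylated in macrophages, 33 in adipocytes, 68 carried C/EBPβ and 21 macrophage PPARγ. In the same order, the shares over all regions in chains of 8 or more were 68.9%, 33.6%, 41.1% and 6.58%. Over all autosomal PU.1 regions they were 41.1%, 28.1%, 28.8% and 2.83%. In 5 of the 10 no region was acetylated in adipocytes, as in 401 of the 1005 chains. Coordinates are those of mm8 as the file lists them, and genes near the chains were not analysed here. The longest chain lay on chromosome 1 from 192940226 to 192982129. Of its 19 regions 16 were acetylated in macrophages and none in adipocytes, and 7 carried C/EBPβ. PPARγ met the region at 192940226 to 192940509 in both cell types, with an authors' fold of 5.73 in macrophages and 5.42 in adipocytes, and the region at 192970150 to 192970535 in macrophages alone (fold 7.94).

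The next chains were alike in this. On chromosome 11 from 114693312 to 114733632, 13 of 18 regions had macrophage H3K9Ace and none had the adipocyte mark, 8 carried C/EBPβ, and 1 met a macrophage PPARγ region of fold 17.85. On chromosome 14 from 73893700 to 73930051, macrophage H3K9Ace lay at 12 of 17 regions and adipocyte H3K9Ace at none. The most compact of the 10, on chromosome 9 from 70629466 to 70651252, packed 15 regions into 21.8 kb, 14 of them acetylated in macrophages and none in adipocytes, with PPARγ regions of fold 14.25 and 6.49. The chain on chromosome 3 from 96057712 to 96086877 had 13 of 14 regions acetylated in macrophages, 5 with C/EBPβ and none with PPARγ.

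Other chains of the 10 were acetylated in both cell types. On chromosome 17 from 84008808 to 84036857, macrophages acetylated 12 of 15 regions and adipocytes 10. On chromosome 16 from 24951763 to 24975335 the number was 11 of 14 in each cell type. That chain also had 4 PU.1 regions with macrophage PPARγ, all with C/EBPβ, although 3 of the 4 met the same PPARγ region (24967897 to 24968871, fold 7.71). The remaining chains lay on chromosome 6 from 87482773 to 87509209, on chromosome 16 from 10900823 to 10928414 and on chromosome 14 from 46269889 to 46296737. They had 13, 13 and 11 regions acetylated in macrophages and 1, 6 and 5 in adipocytes.

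**Figure D5:**
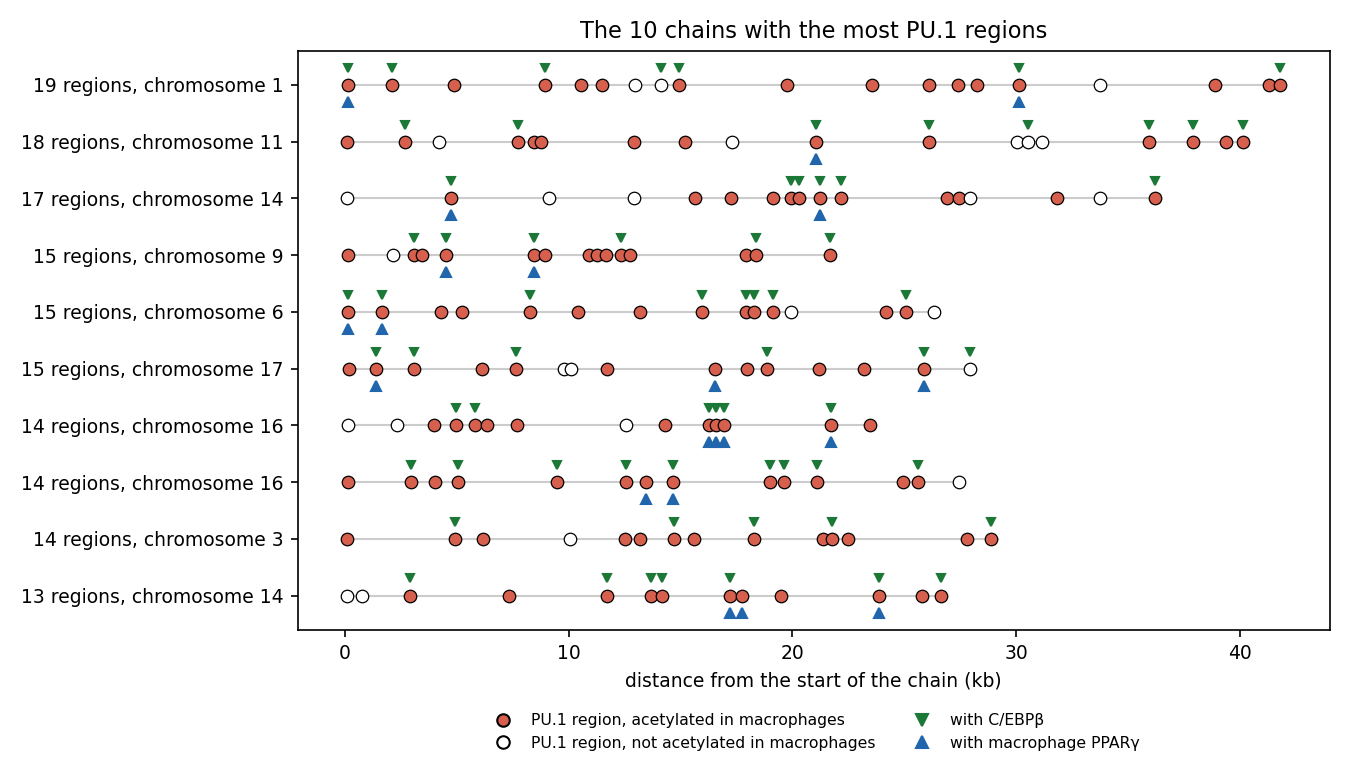
The 10 chains with the most PU.1 regions, 1 per line, with the distance from the start of the chain in kb on the horizontal axis. Circles are PU.1 regions, filled where acetylated in macrophages (128 of 154), with a green mark above for C/EBPβ (68) and a blue mark below for macrophage PPARγ (21); the marks are spread along the chains, and 9 of the 10 carry PPARγ.

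In 2 chains 4 PU.1 regions met macrophage PPARγ, and in 19 chains 3 did. Both chains with 4 and, of the 19, the 3 with the most PU.1 regions are given here; at most of their PU.1 regions with PPARγ there was C/EBPβ as well. A single PPARγ region could reach several PU.1 regions, and the spans of these 5 chains held 2 to 4 PPARγ regions each. Of the 5, 3 are named above, from 46269889 on chromosome 14, from 24951763 on chromosome 16 and from 84008808 on chromosome 17. The other two lay on chromosome 11 from 100805894 to 100826623, and on chromosome 7 from 142199388 to 142213456. The first had 4 of 8 regions with PPARγ, all with C/EBPβ. One of its PPARγ regions, 100819156 to 100819466, had a fold of 20.97, the highest at any dense region, and adipocyte PPARγ was called there too (fold 7.68). The chain on chromosome 7 had 3 of 11 regions with PPARγ, all with C/EBPβ, 10 acetylated in macrophages and 1 in adipocytes.

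A small set of chains had no PU.1 region acetylated in macrophages. In 46 of the 1005 chains no PU.1 region overlapped macrophage H3K9Ace, and 6 chains met none of the 5 lists. The 5 of these 46 chains with the most regions had 7 each. They lay on chromosome 3 from 121833472 to 121844304 and from 59308037 to 59323553, on chromosome 17 from 57020674 to 57032633, on chromosome 19 from 32965246 to 32977622 and on chromosome 18 from 32491410 to 32504900. Of their 35 regions 10 carried C/EBPβ, none carried PPARγ of either cell type, and 1 was acetylated in adipocytes. Over all dense regions C/EBPβ lay at 39.7%, macrophage PPARγ at 5.54%, adipocyte PPARγ at 0.916% and adipocyte H3K9Ace at 36.5%. In the chain on chromosome 17 macrophage H3K9Ace still covered 9.62% of the span. At the opposite end, 34 chains had every PU.1 region acetylated in macrophages and none in adipocytes. Of these 1 had 8 regions and 8 had 7, and it is given here with the 4 of those 8 that had the shortest spans. They lay on chromosome 4 from 130185213 to 130194215 with 8 regions, and with 7 regions each on chromosome 5 from 117394520 to 117401720, chromosome 11 from 102987095 to 102994610 and from 87564946 to 87575197, and chromosome 7 from 139825558 to 139836113. Of their 36 regions 12 carried C/EBPβ, and 1 met macrophage PPARγ (fold 5.64), beside 39.7% and 5.54% of all dense regions. In the chain from 102987095 on chromosome 11 adipocyte H3K9Ace covered 11.3% of the span, although it met no PU.1 region.

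Adipocyte PPARγ met 3 PU.1 regions in 1 chain and 2 in each of 5 chains. The first and 4 of the 5, those with the most regions and then the shorter span, are given here. These 5 chains held 30 PU.1 regions, of which 15 were acetylated in macrophages and 28 in adipocytes. Over all dense regions these shares were 63.7% and 36.5%. The chain left out had 5 regions, of which 4 were acetylated in macrophages and 5 in adipocytes. On chromosome 9 from 60819813 to 60830436, all 7 regions were acetylated in adipocytes and 1 in macrophages. Its 3 regions with adipocyte PPARγ all met 1 PPARγ region of fold 5.59, and all 3 carried macrophage C/EBPβ. The others lay on chromosome 11 from 60651406 to 60661159, chromosome 8 from 109034509 to 109046796, chromosome 17 from 35628487 to 35633536 and chromosome 5 from 125678983 to 125685202. The last had adipocyte PPARγ regions of fold 12.79, 7.61 and 5.77 and a macrophage one of fold 7.96.

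The chains were spread over all 19 autosomes, with 20 to 91 chains each. Chromosome 11 held 88 chains, 8.76%, against 6.71% of lone regions, and chromosome 13 held 35, 3.48%, against 5.39%. These differences, with odds ratios of 1.33 and 0.634, are a description without a p, since the positions of the PU.1 regions chose both classes. They were not used to call any autosome richer or poorer in chains. The spans of the chains held 19.8% of the autosomal macrophage PPARγ list, 12.3% of the C/EBPβ list, 7.38% of the macrophage H3K9Ace list, 3.79% of the adipocyte PPARγ list and 2.97% of the adipocyte H3K9Ace list. These lists differ in length and width, and their shares were not tested against each other.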

How the data were processed

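Per the labels' protocols, the authors aligned 36-bp reads to mm8, a mouse genome build, by ELAND with at most 2 mismatches and a unique best match, so repeated sequence is under-represented. For the peak caller, settings and control were not stated in the sources used. The total reads per library are not in these files, so depth is unknown. The deposited lists for PU.1, C/EBPβ and H3K9Ace hold positions only. The PPARγ lists give, per the file headers, each region's fold, a ratio to a control that is not named, a peak height as a signal in whole units, and a false discovery rate in percent. These are the authors' values and serve only as a description within a list. The PPARγ lists used hold regions of fold 5 or more, 1961 in macrophages and 2634 in adipocytes, so the PPARγ shares depend on that cut. Longer PPARγ lists, of 18470 regions in macrophages and 12430 in adipocytes, served as an alternative setting. With them the odds ratio of middle to lone regions was 4.00 for macrophage PPARγ and 2.21 for adipocyte PPARγ. The 20 repeated rows of the adipocyte H3K9Ace list were counted once. Per the series design text, input-biased areas were removed: no autosomal PU.1 region and no span of a dense chain met any of the 460 masked intervals.

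Overlap meant at least 1 bp. All 6335 dense regions were used, with no filter. Shares carry 95% Wilson intervals and odds ratios exact conditional ones (Python 3.11.15, scipy 1.17.1, statsmodels 0.14.6). The p-values were adjusted by Benjamini-Hochberg over the 5 lists, the 15 added tests and the 10 comparisons of position. The added tests, those of position and the comparison of chromosomes were chosen after seeing the data. The width of PU.1 regions and the autosomes of the chains come from the list that chose the members and are given without a p. The members, lists and tests were chosen with earlier results of these data known. Chaining, overlap and tests were checked on simulated lists. The chains named were the 10 with the most regions, and the 5 with the most macrophage PPARγ, the most adipocyte PPARγ, the most regions without macrophage acetylation, and the most regions with it throughout and no adipocyte acetylation. Ties went to the chain with more regions and then to the shorter span.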

Additional observations from a re-analysis of the deposited data

Results flagged for a closer look

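The dense-against-lone contrast differed between the cell types for H3K9Ace. The ratio of regions acetylated in macrophages alone to those acetylated in adipocytes alone was 3.36 times as high at middle regions of dense chains (332 and 60) as at lone regions (2133 and 1295), by Fisher's exact test over these regions. It was drawn out because a test of the difference itself passed the threshold. PU.1 was mapped in macrophages only, and no library was repeated.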

How the results depend on the processing

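Odds ratios were recomputed under other overlaps, gap limits, chain sizes, chain members, region widths, lists and strata. This gave 92 values for 8 results, of which the 5 for PU.1 width stand as a description only. Those from all regions of the chains, also among the 92, count neighbouring regions as if independent and add no support. Of the 92, 89 kept their direction and their side of the threshold, and none reversed. The 3 that did not all concern adipocyte PPARγ. Its odds ratio was 1.32 with chains of 8 or more and 1.59 with the last region of each chain. With the narrowest quartile of PU.1 regions left out it was 1.99. The first and the third of these settings had fewer chains, 172 and 579. The cause was not tested for any of the 3. Over all alternatives the odds ratio ranged from 1.84 to 4.40 for C/EBPβ, from 2.22 to 5.15 for macrophage PPARγ, from 1.32 to 4.33 for adipocyte PPARγ, from 3.05 to 9.67 for macrophage H3K9Ace and from 1.64 to 2.79 for adipocyte H3K9Ace. The upper ends for C/EBPβ and macrophage PPARγ came from centres within 1000 bp, a window that can reach neighbouring PU.1 regions in dense chains only. The ratio of macrophages alone to adipocytes alone ranged from 4.15 to 14.4, its contrast with lone regions from 2.52 to 7.68, and the odds ratio of a wide PU.1 region, given as a description, from 2.15 to 2.30. Leaving out chromosome 2, which held the most chains, changed no call. The strata of C/EBPβ were added after seeing the data. No paired analysis was possible because each group holds 1 library, so no libraries could be paired; the McNemar tests pair regions, not libraries. Depth limits what a missing overlap can show, since a region absent from a list may lie below the authors' threshold.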
